A study of Mus musculus with 30 samples.

Results

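The subunits of the constitutive proteasome and its activators were followed in mouse bone marrow derived macrophages. Genes were taken by name (Psma, Psmb, Psmc, Psmd or Psme followed by a number), leaving out the immunoproteasome subunits Psmb8, Psmb9 and Psmb10, and had to reach 100 counts summed over the 30 libraries. Of 30538 genes in the count table, 40 matched the name and 39 were kept; the 1 left out, the thymus-specific Psmb11, had 6 counts, and the lowest kept, Psma8, had 1450. All 39 were among the 13173 genes that passed the low-count filter and were tested.

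The proteasome degrades proteins that carry ubiquitin chains. Its core particle is a barrel of alpha rings, which gate the entrance, and beta rings, of which Psmb5, Psmb6 and Psmb7 cut proteins with chymotrypsin-like, caspase-like and trypsin-like specificity. A regulatory particle with a base (a ring of Psmc ATPases and scaffold subunits) and a lid (with the deubiquitinase Psmd14) binds and unfolds the substrates. Psme proteins are alternative activators that open the core: Psme1 with Psme2 form the interferon-inducible activator linked to antigen presentation, Psme3 a nuclear one and Psme4 a large single-chain one. In macrophages exposed to interferon, Psmb8, Psmb9 and Psmb10 replace the catalytic subunits.

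Poly(A) RNA was sequenced from 10 groups of 3 mice each. In wild-type (C57BL/6) cells the groups were untreated, or given 25-hydroxycholesterol (25HC, an oxysterol) at 5 µM, itraconazole (an antifungal drug) at 1 µM or OSW-1 (a plant saponin) at 0.3 µM for 18 h, each without a stimulus or with LPS (lipopolysaccharide, a bacterial cell wall component) at 10 ng/mL. In Ch25h-/- cells, which lack the enzyme that makes 25HC, there were an untreated group and an untreated group with LPS. Stimulated groups have the time label 18 (no unit is given; read as hours) and unstimulated groups 0, so LPS and time in culture cannot be told apart, and what untreated cells received in place of a compound is not stated. The 3 wild-type mice gave all 8 wild-type groups and 3 other mice both Ch25h-/- groups. The p-values rest on the spread between macrophage cultures of 3 mice within a group, pooled over all 10 groups. The main fit has no term for the mouse, so it does not use this pairing.

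Libraries held 23656860 to 43922154 counts. Every count was even in 20 libraries, while 10 held odd and even counts: the 3 of OSW-1 with LPS, the 6 of Ch25h-/- and the library of 25HC without LPS from mouse 3. Ch25h itself was at 0.973 to 2.34 CPM (counts scaled to library size) in the 6 untreated wild-type libraries and at 0 to 0.277 CPM in the 6 Ch25h-/- libraries. Macrophage markers (7 of 8 in the table) summed to 7900 to 10100 CPM in OSW-1 with LPS and to at least 14800 CPM in every other group, neutrophil markers to at most 2.38 CPM, T cell markers to at most 37 CPM and B cell markers to at most 11.7 CPM. In such bulk RNA, fewer cells of a type and less RNA per cell cannot be told apart.

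Levels per exon length (RPKM, the CPM value divided by the exon length in kilobases) were uneven among subunits that assemble in equal numbers. In untreated wild-type cells the 31 core and regulatory particle genes without Psma8 ranged from 5.77 RPKM (Psma3) to 115 RPKM (the lid gene Psmd8), a 19.9-fold range around a median of 30.7 RPKM. With LPS the range was 10.5 RPKM (Psma3) to 231 RPKM (the alpha gene Psma6), with a median of 50.2 RPKM. The length is the union of all annotated exons, which lowers the value of genes with long rare isoforms. Psma8, an alpha subunit of germ cells, stood at 0.77 RPKM without and 0.537 RPKM with LPS. Per length, the order of the catalytic genes in untreated cells was Psmb6 (88.9 RPKM), Psmb5 (44.9 RPKM) and Psmb7 (26.1 RPKM). Psme1 (65 RPKM) had the highest value of the activator genes by the counts as given. Its partner Psme2 (mean 20.3 CPM) has a near-identical copy, Psme2b (95.5 CPM, against 143 CPM for Psme1). Counts may be divided between these copies, so the rank of Psme1 is uncertain.

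**Figure D1:**
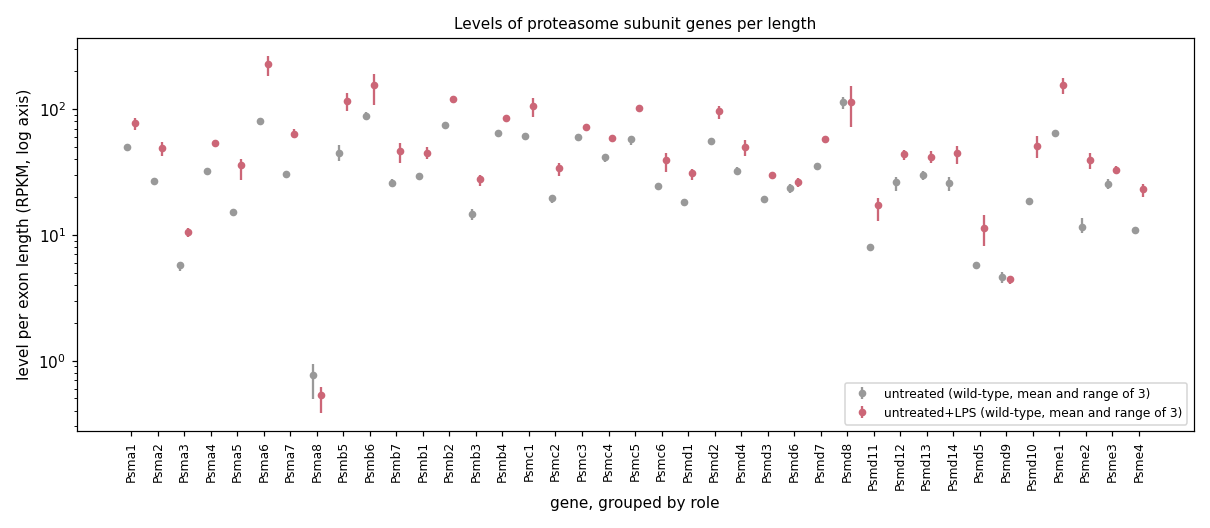
Level per exon length (RPKM, log axis) of the 39 genes in untreated wild-type macrophages without (grey) and with LPS (red); points are means and bars the range of 3 libraries. Psma8 lies far below the others, and Psma6 is the highest with LPS at 231 RPKM.

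The 39 genes are spread over 16 chromosomes. To show what lies in front of genes whose levels are followed below, 4 promoters are printed, chosen after the values were seen: Psmb5 and Psmb6 (catalytic), Psmc4 (the ATPase gene with the largest change under OSW-1 with LPS) and Psme1 (the gene that fell most). Each is the 250 bases before the RefSeq transcription start in GRCm38.p6, 5′ to 3′ on the gene's strand, at chr14:54617996-54618245 (minus strand), chr11:70525107-70525356 (plus), chr7:28050093-28050342 (minus) and chr14:55578244-55578493 (plus). Capitals mark the antioxidant response element core TGACNNNGC or the CCAAT box, on either strand.
Psmb5: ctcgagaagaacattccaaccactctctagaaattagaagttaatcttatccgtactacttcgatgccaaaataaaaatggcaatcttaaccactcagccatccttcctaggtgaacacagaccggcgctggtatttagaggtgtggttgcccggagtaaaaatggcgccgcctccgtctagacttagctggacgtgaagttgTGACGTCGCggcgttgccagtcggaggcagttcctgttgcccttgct
Psmb6: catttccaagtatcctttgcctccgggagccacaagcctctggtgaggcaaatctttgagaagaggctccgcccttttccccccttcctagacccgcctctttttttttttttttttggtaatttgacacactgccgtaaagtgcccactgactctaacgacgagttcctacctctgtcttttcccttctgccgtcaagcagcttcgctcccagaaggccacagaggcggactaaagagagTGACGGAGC
Psmc4: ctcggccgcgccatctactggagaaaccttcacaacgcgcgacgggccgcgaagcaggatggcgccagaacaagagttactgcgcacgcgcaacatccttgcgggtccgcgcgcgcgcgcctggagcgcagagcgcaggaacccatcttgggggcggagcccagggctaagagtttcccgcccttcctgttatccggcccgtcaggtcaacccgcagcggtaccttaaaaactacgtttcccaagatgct
Psme1: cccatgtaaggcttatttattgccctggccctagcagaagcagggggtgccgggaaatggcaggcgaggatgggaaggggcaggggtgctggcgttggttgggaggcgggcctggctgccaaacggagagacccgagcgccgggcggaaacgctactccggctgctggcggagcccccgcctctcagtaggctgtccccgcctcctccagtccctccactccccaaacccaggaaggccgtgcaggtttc

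Windows with the 50 bases after the start as well were at hand for 32 of the 39 genes. The core TGACNNNGC, which both NRF1 and NRF2 factors can bind, was in 6 of the 32 (18.8%), against 14.0% of 27025 genes. In Psmb5 it starts 47 bases and in Psmb6 9 bases before the transcription start; Psmc6, Psmd9, Psmd12 and Psme4 held the others. CCAAT was in 12 (37.5%, against 41.1%), and the STAT core TTCNNNGAA in 1 (3.12%, against 9.55%). The interferon response core (GAAA, any 2 bases, GAAA), also searched on both strands, was in 4 (12.5%, against 3.99%): Psmb3, Psmd4, Psmd9 and Psme1. In Psme1 it lies on the minus strand, as TTTCGCTTTC from base 10 after the start. Neither TGACNNNGC nor CCAAT is in the printed windows of Psmc4 and Psme1. These matches describe letters only.

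LPS raised nearly the whole proteasome set in untreated wild-type macrophages. The counts of the 39 genes made up 0.359 to 0.416% of all counts without LPS and 0.472 to 0.539% with it. Of the 39, 35 were higher and 0 lower (edgeR quasi-likelihood test, Benjamini-Hochberg adjusted p under 0.05); 36 were higher and 0 lower at an unadjusted p under 0.05, and 35 and 0 by DESeq2. Of all tested genes, 30.8% were higher and 30.1% lower. The median log2 fold change was 0.79 over the 39 genes and -0.01 over all tested genes. All 35 had 3 LPS libraries above all 3 unstimulated ones, a count that was not made over all tested genes.

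Every role took part: 7 of 8 alpha genes, 3 of 3 catalytic and 4 of 4 other beta genes, 6 of 6 ATPase genes, 3 of 3 other base genes, 6 of 8 lid genes, 2 of 3 base chaperone genes and 4 of 4 activator genes were higher. The role medians ran from 0.65 (beta genes without catalytic activity) to 1.18 (activators). The genes not called were Psma8 (log2 fold change -0.53 ± 0.34, SE), Psmd6 (0.17 ± 0.08), Psmd8 (-0.01 ± 0.17) and the chaperone Psmd9 (-0.07 ± 0.08). Psmd8 spread widely with LPS, at 465, 364 and 223 CPM in mice 1 to 3, against 384, 363 and 310 CPM without.

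The catalytic genes rose by unequal amounts. Psmb5 stood at 46.5, 39.8 and 34.9 CPM in mice 1, 2 and 3 without LPS and at 120, 107 and 87.7 CPM with it (log2 fold change 1.38 ± 0.12, adjusted p = 7.1e-10). Psmb6 went from 179, 168 and 152 CPM to 358, 315 and 202 CPM (0.81 ± 0.15, adjusted p = 6.07e-05). For both genes the lowest LPS library lay above the highest unstimulated one, by a small margin for Psmb6 in mouse 3. Psmb7 went from 95, 91.1 and 81.9 CPM to 183, 165 and 128 CPM (0.83 ± 0.10, adjusted p = 1.88e-07). The mouse 3 library with LPS was the lowest of the 3 for each catalytic gene, and its sum over all 39 genes was 5216 CPM, against 6284 and 6733 CPM.

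**Figure D2:**
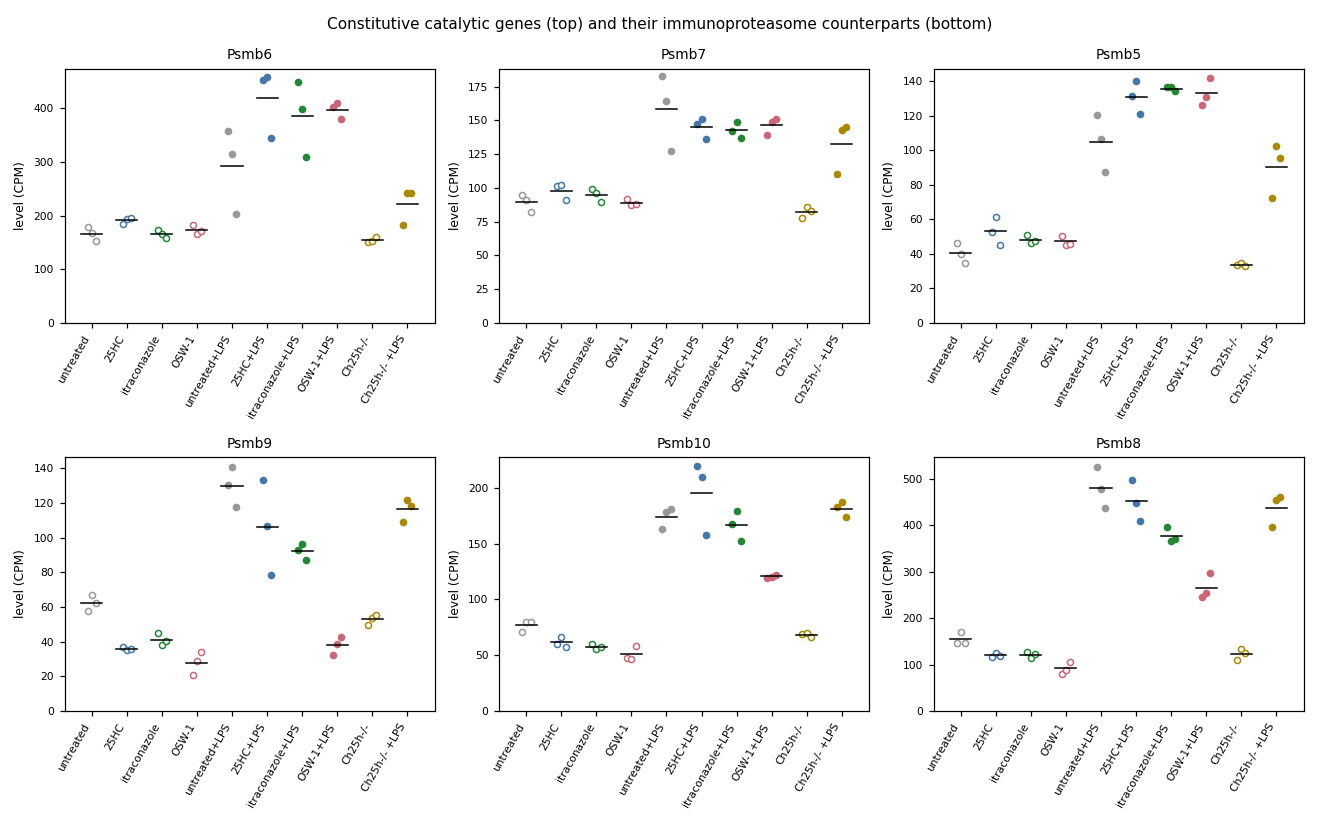
Level (CPM) of the catalytic genes Psmb5, Psmb6 and Psmb7 and of the immunoproteasome genes in every library, by group; points are libraries and lines group means. Psmb5 and Psmb6 with LPS are higher in the compound groups than in the untreated group on average, and Psmb7 is not.

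The 3 genes that rose more than Psmb5 were Psme2, Psma6 and Psmd10. Among alpha genes, Psma6 went from 100.5, 104 and 93 CPM to 329, 299 and 226 CPM (1.52 ± 0.12, adjusted p = 2.77e-11), and Psma5 from 20.6, 19.8 and 20.4 CPM to 52.7, 52.5 and 36.4 CPM (1.22 ± 0.11). Psmd10, the chaperone (gankyrin) that helps build the ATPase ring, went from 26.3, 27.7 and 28.6 CPM to 90.5, 76 and 59.9 CPM (1.45 ± 0.11, adjusted p = 1.65e-11). In all 3 genes the groups lay well apart. Psme1 went from 144, 147 and 140 CPM to 389, 360 and 293 CPM (1.28 ± 0.10, adjusted p = 8.31e-11), and Psme2 from 18.3, 24.1 and 18.6 CPM to 79, 69.6 and 58.6 CPM (1.76 ± 0.12, adjusted p = 6.74e-12). Psme4 rose by 1.09 ± 0.09, while the nuclear activator Psme3 rose by 0.38 ± 0.08 (adjusted p = 0.000303).

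Psme2 has a near-identical copy, Psme2b, and held only 15.2 to 19.3% of the counts of both genes in every library, so its own count is uncertain. The sum of both rose by 1.87 ± 0.12 with LPS. A further 9 genes share exon bases with a gene on the opposite strand (Psma4, Psma5, Psmb7, Psmc3, Psmd1, Psmd3, Psmd9, Psmd13 and Psme1); the strand setting of the counting is not given in the sources used here, so their counts may hold reads of the partner.

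Ch25h-/- macrophages responded alike in count: 36 of the 39 genes were higher and 0 lower with LPS (28% higher and 29.2% lower among all tested genes; 1 lower at an unadjusted p under 0.05, 0 by DESeq2), with a median log2 fold change of 0.71. The 35 genes called in wild-type cells were all among them. Psmb5 went from 33.5, 34.8 and 33 CPM to 72.3, 103 and 95.3 CPM (1.42 ± 0.13, adjusted p = 5.75e-10), and Psma6 from 88.4, 95.5 and 93.3 CPM to 188, 229 and 254 CPM (1.28 ± 0.11, adjusted p = 7.31e-10). Psme1 rose by 1.21 ± 0.10 and Psme2 by 1.74 ± 0.13. Psmd8 had the largest negative value, -0.38 ± 0.17 (adjusted p = 0.0693), from 282, 320 and 308 CPM to 186, 245 and 270 CPM, with no overlap between the groups. It was called lower with the mouse as a block (-0.39, adjusted p = 0.0129), in a fit of these groups alone (-0.38, adjusted p = 0.0205) and without the LPS library of mouse 3 (-0.49, adjusted p = 0.038).

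The direct tests of genotype called no member, but most values were negative. Without LPS, 37 of 39 were negative, with a median of -0.1 against 0 over all tested genes. With LPS, 36 were negative, with a median of -0.14 against -0.01. For the difference of the LPS responses, 26 were negative, with a median of -0.06 against -0.02. The members come from the same libraries, and their signs were not tested as a set. Between genotypes without LPS, 0 of 39 were higher and 0 lower (0% and 0.00759% of all tested genes), with 0 and 5 at an unadjusted p under 0.05 and 0 and 1 by DESeq2. With LPS, 0 were higher and 0 lower (0.0152% and 0.213% of all tested genes), with 0 and 8 at an unadjusted p under 0.05 and 0 and 0 by DESeq2. The lowest p among the 8 was that of Psmd10, at 50.1, 63.5 and 62.4 CPM in Ch25h-/- and 90.5, 76 and 59.9 CPM in wild-type cells (-0.36, adjusted p = 0.119); these groups overlapped. Without the wild-type LPS library of mouse 3, 14 members were lower in Ch25h-/- cells with LPS. Without the unstimulated wild-type library of mouse 3, 2 were lower without LPS. The shares over all tested genes were not taken for fits with a library left out or at an unadjusted p, so these counts have no background beside them. For the difference of the LPS responses, 0 were higher and 0 lower (0% and 0% of all tested genes), with 0 and 1 at an unadjusted p under 0.05 and 0 and 0 by DESeq2; without the wild-type LPS library of mouse 3, 2 were lower.

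**Figure D3:**
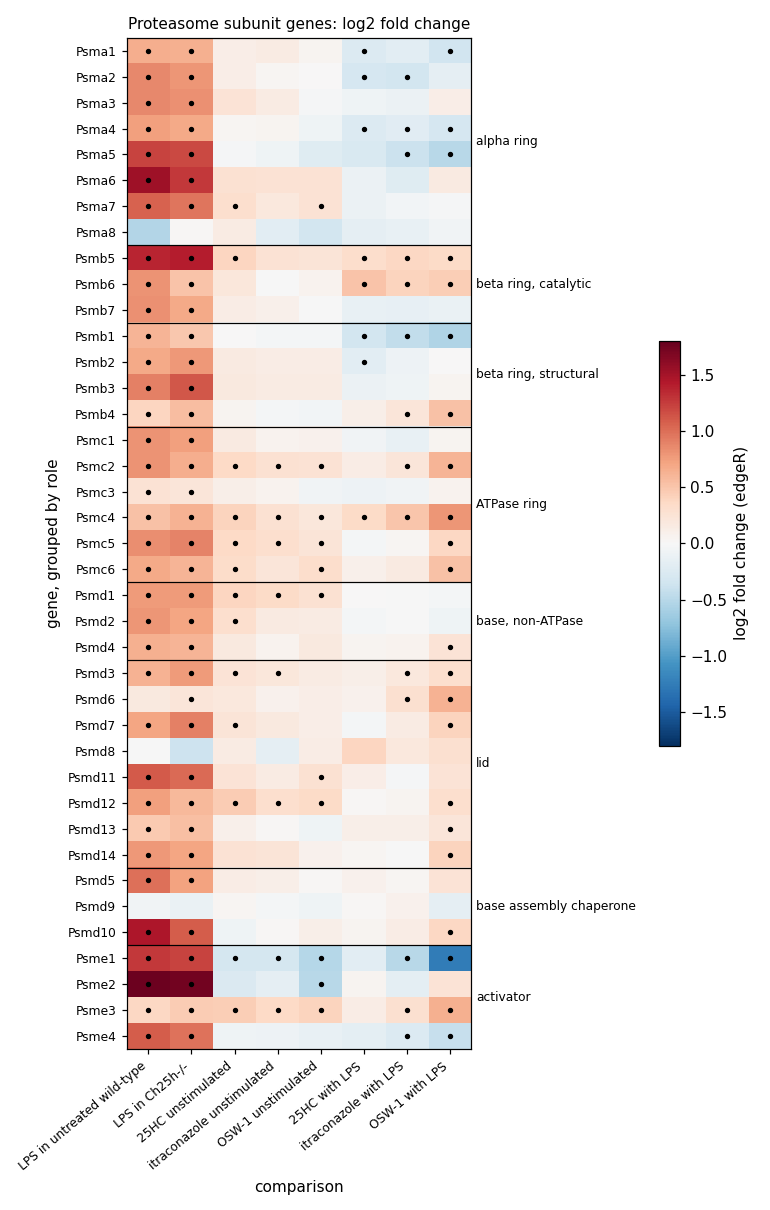
Log2 fold change (edgeR) of the 39 genes, ordered by role, in 8 comparisons; dots mark an adjusted p under 0.05. The LPS columns are called higher throughout except for Psma8, Psmd8 and Psmd9 in both genotypes and Psmd6 in wild-type cells, and the compound columns hold both directions.

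Without LPS, the activator gene Psme3 was higher and Psme1 lower with each compound, and most other members were not called. The 3 comparisons share the same 3 untreated libraries, and the doses differ, so values are set side by side without a comparison between compounds. With 25HC, 12 of 39 were higher and 1 lower (15.9% and 12.8% of all tested genes); with itraconazole, 7 and 1 (14.4% and 12.4%); with OSW-1, 9 and 2 (20.1% and 17.2%). For itraconazole and OSW-1 the share of members higher (17.9% and 23.1%) was close to that over all tested genes; for 25HC it was 30.8%. The median log2 fold changes were 0.18, 0.11 and 0.10, against 0.01, 0 and 0 over all tested genes. Of the ATPase genes, 4, 3 and 4 of 6 were higher; of the lid genes, 3, 2 and 2 of 8; of the 8 alpha genes, 1, 0 and 1. The highest fold among the members higher was 1.37 with 25HC, 1.28 with itraconazole and 1.33 with OSW-1.

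Psmc4, an ATPase that feeds substrate into the core, stood at 91.8, 94.3 and 82.3 CPM in untreated cells. It was at 118, 128 and 108 CPM with 25HC (0.40 ± 0.07, adjusted p = 0.00011), at 112, 104 and 110 CPM with itraconazole (0.28 ± 0.07, adjusted p = 0.00421) and at 106, 100 and 103 CPM with OSW-1 (0.21 ± 0.07, adjusted p = 0.0208). All compound libraries lay above all untreated ones. Psmd12, a lid scaffold gene, stood at 76.5, 72.5 and 59.5 CPM in untreated cells, and was at 93.9, 102 and 89.8 CPM with 25HC (0.45 ± 0.08), at 89.2, 85.8 and 83.1 CPM with itraconazole (0.31 ± 0.08) and at 91.7, 87.2 and 86.8 CPM with OSW-1 (0.35 ± 0.08). Psmd1, the large base scaffold, rose from 135, 140 and 124 CPM to between 158 and 181 CPM over the 9 compound libraries, by 0.39 ± 0.08, 0.35 ± 0.08 and 0.28 ± 0.08. Of the catalytic genes only Psmb5 with 25HC was called (52.7, 61.2 and 45.2 CPM, 0.39 ± 0.12, adjusted p = 0.018), and those libraries overlapped the untreated ones.

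Of the 4 activator genes without LPS, Psme3 was higher and Psme1 lower with each compound, Psme2 was called with OSW-1 and Psme4 with none (-0.07 ± 0.09, -0.10 ± 0.09 and -0.13 ± 0.09). Psme3 stood at 72.9, 82.4 and 68.7 CPM in untreated cells, and was at 106, 112 and 87.3 CPM with 25HC (0.45 ± 0.08, adjusted p = 0.000218), at 99.4, 93.3 and 93.4 CPM with itraconazole (0.35 ± 0.08, adjusted p = 0.00231) and at 101, 103 and 93.9 CPM with OSW-1 (0.41 ± 0.08, adjusted p = 0.00036). Psme1, at 144, 147 and 140 CPM in untreated cells, was at 114, 117 and 114 CPM with 25HC (-0.32 ± 0.10, adjusted p = 0.0209), at 125, 111 and 109 CPM with itraconazole (-0.32 ± 0.10, adjusted p = 0.0208) and at 96.5, 104 and 102 CPM with OSW-1 (-0.51 ± 0.10, adjusted p = 0.000314). For neither gene did a compound library overlap the untreated ones. Psme2 fell with OSW-1 (14.2, 14.2 and 14.7 CPM, -0.50 ± 0.12, adjusted p = 0.00242) and its values with 25HC and itraconazole were -0.26 ± 0.12 and -0.16 ± 0.12. The immunoproteasome genes were also lower: the log2 fold change of Psmb9 was -0.79 with 25HC, -0.60 with itraconazole and -1.16 with OSW-1, that of Psmb8 between -0.35 and -0.75 and that of Psmb10 between -0.32 and -0.60. The 25HC calls of Psmb8 and Psmb10 and the itraconazole call of Psmb8 were lost without the untreated library of mouse 2 (-0.29, -0.29 and -0.28). Psmb10 with 25HC was also not called without the untreated library of mouse 3 (-0.29) or the 25HC library of mouse 1 (-0.31) or 3 (-0.28), nor Psmb8 with itraconazole without the itraconazole library of mouse 2 (-0.31).

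Single libraries decided part of these calls. Without the untreated library of mouse 3, 3 members in place of 7 were higher with itraconazole (Psmc2, Psmc5, Psmd3 and Psmd12 were lost) and 4 in place of 9 with OSW-1 (Psmc2, Psmc4, Psmc5, Psmd1 and Psmd11 were lost). The count with OSW-1 was also 4 without the OSW-1 library of mouse 1 (Psma7, Psmc2, Psmc4, Psmc5 and Psmd11 were lost). Psmb5 with 25HC was not called without the 25HC library of mouse 2 or the untreated library of mouse 3, nor in a fit of the compared groups alone. The fall of Psme1 was not called with 25HC without the 25HC library of mouse 1 or 2 or the untreated library of mouse 2, nor with itraconazole without the itraconazole library of mouse 2 or 3 or the untreated library of mouse 1 or 2 (0 members lower in each).

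**Figure D4:**
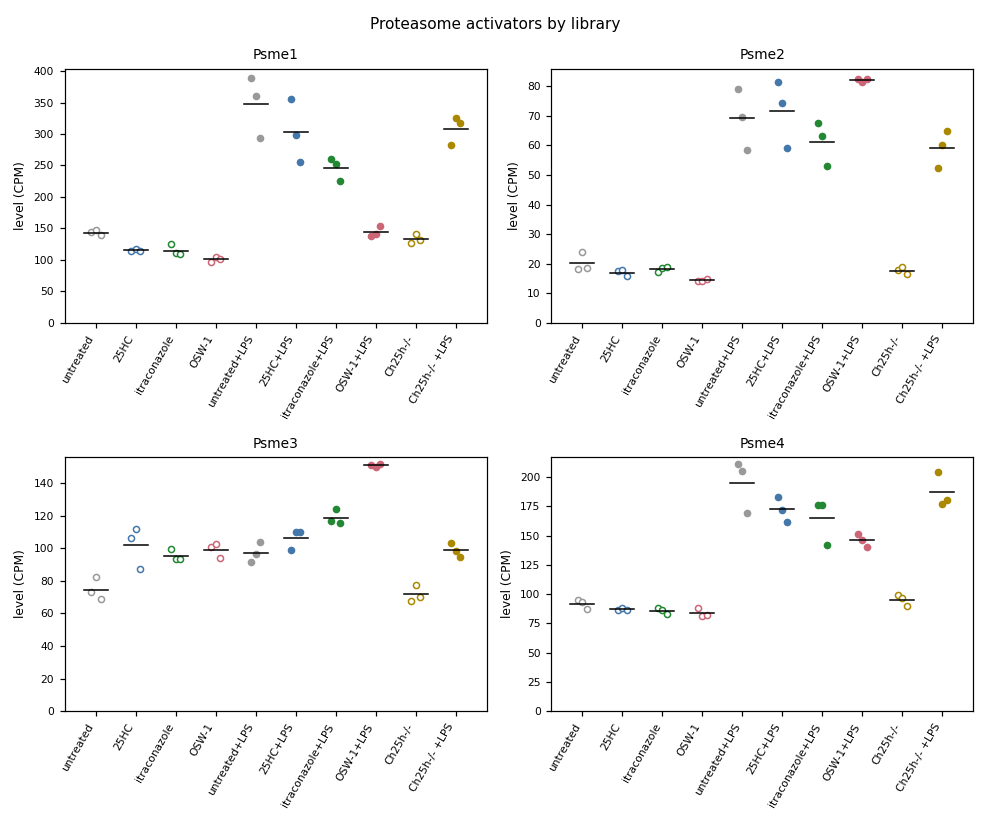
Level (CPM) of the 4 activator genes in every library, by group; points are libraries (filled with LPS) and lines group means. Psme1 in OSW-1 with LPS lies at 138 to 153 CPM, above the 96.5 to 104 CPM of OSW-1 without LPS and below the 293 to 389 CPM of untreated cells with LPS, while Psme2 lies at 81.4 to 82.5 CPM.

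With LPS, the compound groups were set against untreated LPS-stimulated cells, again with the same 3 control libraries for each compound. With 25HC, 3 of 39 members were higher and 5 lower (20.8% and 21% of all tested genes); with itraconazole, 8 and 6 (26.5% and 27.9%); with OSW-1, 16 and 6 (34.3% and 37.1%). These shares were below those over all tested genes except the 41% higher with OSW-1. The median log2 fold changes of the members were 0.01, 0 and 0.21, against -0.01, -0.03 and -0.06 over all tested genes.

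Of the 8 alpha genes, 3 were lower and 0 higher with each compound, with OSW-1 a share near that of all tested genes. Psma4 stood at 135, 129 and 121 CPM in untreated LPS cells, and at 113, 105 and 107 CPM with 25HC (-0.24 ± 0.07, adjusted p = 0.00516), 106, 112 and 117 CPM with itraconazole (-0.20 ± 0.07, adjusted p = 0.0135) and 103, 97.4 and 112 CPM with OSW-1 (-0.30 ± 0.07, adjusted p = 0.00022). The groups did not overlap for any compound. The itraconazole call was lost without the itraconazole or the control library of mouse 1. In a fit of the compared groups alone, the 25HC and itraconazole calls of Psma4 were both lost. Of the other alpha genes lower with 25HC, Psma1 was not called without the low-count filter. Its call was also lost without the 25HC or the control library of mouse 1 or 2. The 25HC call of Psma2 was lost without the control library of mouse 1. Psma5 was at 31.5, 31 and 37.4 CPM with OSW-1 (-0.50 ± 0.11, adjusted p = 0.000292), against 52.7, 52.5 and 36.4 CPM, with mouse 3 overlapping.

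Among beta genes, Psmb1, which has no catalytic activity, stood at 230, 207 and 184 CPM in untreated LPS cells. It was at 170, 161 and 161 CPM with 25HC (-0.34 ± 0.09, adjusted p = 0.0044), 146, 145 and 168 CPM with itraconazole (-0.44 ± 0.09, adjusted p = 0.000262) and 136, 138 and 154 CPM with OSW-1 (-0.54 ± 0.09, adjusted p = 1.03e-05). All 9 compound libraries were below the 3 controls. Psmb4, which closes the beta ring, was at 170, 163 and 164 CPM in controls and 234, 246 and 238 CPM with OSW-1 (0.53 ± 0.06, adjusted p = 4.3e-08), with 0.22 ± 0.06 for itraconazole (adjusted p = 0.00458).

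The catalytic genes Psmb5 and Psmb6 were higher with each compound, and Psmb7 was not called (-0.13 ± 0.10, -0.15 ± 0.10 and -0.11 ± 0.10). Psmb5, at 120, 107 and 87.7 CPM in controls, was at 132, 140 and 121 CPM with 25HC (0.32 ± 0.12, adjusted p = 0.0368), 136, 136 and 134 CPM with itraconazole (0.37 ± 0.12, adjusted p = 0.0116) and 126, 131 and 142 CPM with OSW-1 (0.34 ± 0.12, adjusted p = 0.0137). Psmb6, at 358, 315 and 202 CPM in controls, was at 452, 458 and 344 CPM with 25HC (0.52 ± 0.15, adjusted p = 0.00786), 448, 399 and 310 CPM with itraconazole (0.40 ± 0.15, adjusted p = 0.0271) and 402, 411 and 380 CPM with OSW-1 (0.45 ± 0.15, adjusted p = 0.0109). The Psmb5 libraries did not overlap; those of Psmb6 overlapped for 25HC and itraconazole. The control library of mouse 3 was the lowest for both genes, and without it none of these 6 calls was made. Psmb5 was also not called with 25HC without the 25HC library of mouse 1 or 2 or the control of mouse 2, or with OSW-1 without the OSW-1 library of mouse 3, nor Psmb6 with itraconazole without the itraconazole library of mouse 1 or 2.

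In the regulatory particle, with OSW-1, 4 of 6 ATPase genes and 6 of 8 lid genes were higher and 0 lower, with medians of 0.45 and 0.31. The shares over all tested genes were 34.3% higher and 37.1% lower. Psmc4 stood at 134, 128 and 124 CPM in controls, and at 160, 174 and 156 CPM with 25HC (0.34 ± 0.07, adjusted p = 0.000353), 191, 185 and 169 CPM with itraconazole (0.50 ± 0.07, adjusted p = 1.93e-06) and 222, 221 and 226 CPM with OSW-1 (0.79 ± 0.07, adjusted p = 2.33e-10). No compound library overlapped the controls. Psmc2 was at 187, 180 and 147 CPM in controls and 267, 259 and 261 CPM with OSW-1 (0.61 ± 0.09, adjusted p = 1.01e-06). Psmd6, a lid gene that LPS alone left uncalled in wild-type cells, was at 67.5, 76.6 and 79.3 CPM in controls and 113, 112 and 119 CPM with OSW-1 (0.63 ± 0.08, adjusted p = 8e-08). The deubiquitinase gene Psmd14 was higher by 0.39 ± 0.11 and the chaperone gene Psmd10 by 0.38 ± 0.10; Psmc3, Psmd1 and Psmd2 were not called.

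**Figure D5:**
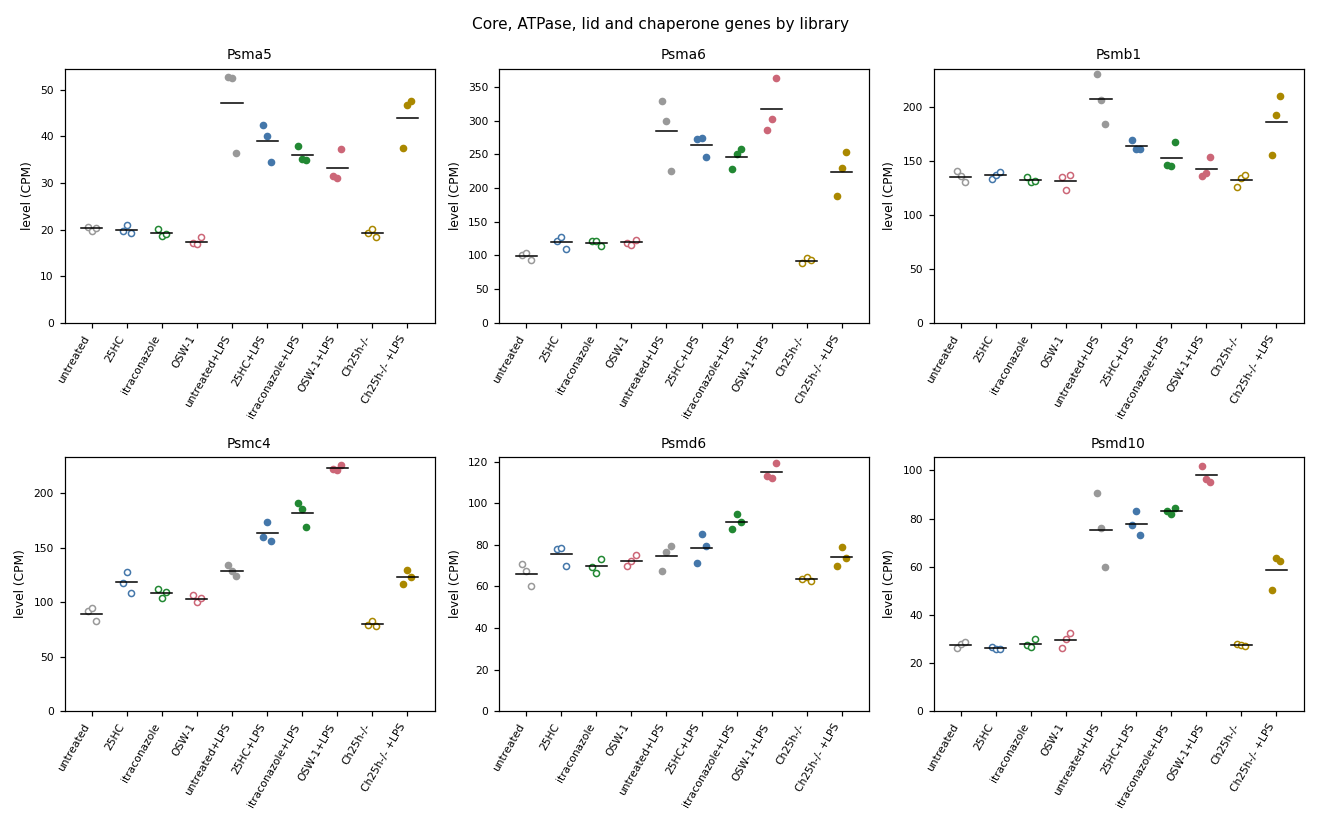
Level (CPM) of core, ATPase, lid and chaperone genes in every library, by group; points are libraries (filled with LPS) and lines group means. With LPS, Psmb1 is lower and Psmc4 higher in all 9 compound libraries than in the 3 untreated ones.

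The activator genes took different courses with LPS. Psme1, at 389, 360 and 293 CPM in controls, was at 355, 299 and 256 CPM with 25HC (not called), 261, 252 and 225 CPM with itraconazole (-0.50 ± 0.10, adjusted p = 0.00021) and 138, 142 and 153 CPM with OSW-1 (-1.27 ± 0.10, adjusted p = 5.8e-11). The OSW-1 libraries with LPS lay below all 3 controls and above the OSW-1 libraries without LPS (96.5, 104 and 102 CPM). Psme2, its partner, was at 82.5, 81.4 and 82.4 CPM with OSW-1, against 79, 69.6 and 58.6 CPM (0.25 ± 0.12, adjusted p = 0.0635), and the sum of Psme2 and Psme2b was 0.23 ± 0.12 (adjusted p = 0.0837). The ratio of Psme1 counts to the counts of Psme2 and Psme2b was 1.14 to 1.3 in untreated cells, 0.8 to 0.851 with LPS, 0.676 to 0.765 with 25HC and LPS, 0.662 to 0.677 with itraconazole and LPS and 0.277 to 0.308 with OSW-1 and LPS.

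Psme3 was higher with OSW-1 and LPS, at 151, 150 and 152 CPM against 91.4, 96.4 and 104 CPM (0.64 ± 0.08, adjusted p = 1.71e-07), and with itraconazole (117, 124 and 116 CPM, 0.29 ± 0.08). Psme4 was lower with OSW-1, at 151, 147 and 141 CPM against 211, 206 and 169 CPM (-0.42 ± 0.09, adjusted p = 0.000122), and with itraconazole (-0.24 ± 0.09, adjusted p = 0.0184), a call lost without the itraconazole library of mouse 3 or the control of mouse 1 or 2. The immunoproteasome genes were all lower with OSW-1 and LPS: the log2 fold change was -0.85 for Psmb8, -1.77 for Psmb9 (adjusted p = 1.55e-10) and -0.53 for Psmb10. With itraconazole Psmb8 (-0.35) and Psmb9 (-0.49) were lower, and with 25HC none of the 3 was called (without the 25HC library of mouse 1, Psmb9 was lower, at -0.49, and without that of mouse 3, Psmb10 was higher, at 0.30).

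A fit of the compared groups alone gave fewer calls with LPS for 25HC (1 higher, Psmc4, and 1 lower, Psmb1) and itraconazole (3 higher, Psmb5, Psmc4 and Psme3, and 2 lower, Psmb1 and Psme1), and no call of Psmb6 with any compound. Without the untreated LPS library of mouse 3 the counts were 1 higher and 9 lower with 25HC, 5 and 10 with itraconazole and 12 and 10 with OSW-1; 25HC had 2 lower without that of mouse 1 and 3 without that of mouse 2, and itraconazole 5 higher without its own mouse 1. Cell type markers also differed in OSW-1 with LPS. The 7 macrophage markers summed to 7900 to 10100 CPM, against 19000 to 29600 CPM in the LPS controls. Lyz2 was at 1272 to 2739 CPM against 11390 to 21070 CPM. Cd68 (115 to 136 against 1026 to 1661 CPM), Fcgr1, Itgam, Mertk and Csf1r were also below all controls. Only Cd14 was higher, at 4593 to 5239 CPM against 781 to 976 CPM. Cd14 was also higher with 25HC (3478 to 5063 CPM) and itraconazole (4655 to 4984 CPM). Lyz2, Itgam, Mertk and Fcgr1 with 25HC, and Cd68, Mertk and Fcgr1 with itraconazole, were below all controls too. T cell markers summed to 0 to 0.0748 CPM against 7.01 to 8.87 CPM, all of it Cd4, with Cd3d, Cd3e and Cd3g at 0, and B cell markers to 0.161 to 0.722 CPM against 5.4 to 9.3 CPM, most of it Cd79b. Fibroblast markers summed to 1.12 to 2.29 CPM against 4.68 to 10.6 CPM. T cell markers were also lower with 25HC (0.834 to 1.6 CPM) and itraconazole (0.248 to 1.89 CPM). So were B cell markers, at 0.521 to 2 CPM with 25HC and 0.373 to 1.77 CPM with itraconazole. Fibroblast markers were at 2.8 to 4.02 CPM with 25HC and 2.34 to 4.48 CPM with itraconazole, also below the LPS controls. Dendritic cell markers summed to 31.1 to 58.9 CPM in OSW-1 with LPS, nearly all of it Ccr7 (30.2, 43.9 and 56.9 CPM). In the LPS controls they summed to 1.7 to 1.97 CPM, and Flt3 was at most 0.182 CPM in either group. With LPS, Ccr7 was at 3.99 to 8.75 CPM with 25HC and 3.49 to 5.97 CPM with itraconazole. In the LPS controls it was at 0.851 to 1.66 CPM. The part of all these markers in the result was not tested. The OSW-1 libraries with LPS hold odd counts and their controls only even ones; halving the even libraries gave 18 higher and 6 lower.

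Whether a compound changed the LPS response itself was tested as a difference of responses. It was lower for 7 and higher for 0 members with 25HC (6.95% and 5.34% of all tested genes; 0 higher also at an unadjusted p under 0.05 and by DESeq2), lower for 6 and higher for 1 with itraconazole (14.2% and 12.2%) and lower for 4 and higher for 7 with OSW-1 (28.3% and 23.4%). Psme1 had the lowest difference, -0.76 ± 0.14 with OSW-1 (adjusted p = 0.000103), and Psme2 the highest, 0.75 ± 0.17 (adjusted p = 0.000735; 0.73 ± 0.17 summed with Psme2b). Psmc4 and Psmb4 each had 0.58 with OSW-1. With the mouse as a block, 8 members in place of 4 were lower with OSW-1. In a fit of the compared groups alone, 0 were called in either direction with 25HC or itraconazole. Without the untreated LPS library of mouse 3, 15, 11 and 9 members were lower with 25HC, itraconazole and OSW-1. The shares over all tested genes were not taken for fits with a library left out. With 25HC, 0 were lower without the unstimulated 25HC library of mouse 2 or the unstimulated untreated one of mouse 3, and 2 to 4 without either 25HC LPS library of mice 1 and 2, the unstimulated 25HC library of mouse 1 or the untreated LPS library of mouse 1 or 2. With itraconazole, 0 to 2 were lower without the LPS or unstimulated itraconazole library of mouse 1 or 2, the untreated LPS library of mouse 1 or 2, or the unstimulated untreated one of mouse 3; the 1 higher, Psmb4, became 0 to 3 with 8 of the libraries left out in turn.

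Genes that build, control or feed the proteasome were read from 4 further lists, beside the immunoproteasome. As shares of all tested genes, 30.8% were higher and 30.1% lower with LPS; against LPS controls, 20.8% and 21% with 25HC, 26.5% and 27.9% with itraconazole and 34.3% and 37.1% with OSW-1. The list around NRF1 held 7 genes: Nfe2l1, the factor that drives proteasome genes, its activators and partners, and Nfe2l2, which encodes NRF2. Of these, 4 were higher (57.1%) and 3 lower (42.9%) with LPS, and 6 higher (85.7%) and 0 lower with OSW-1 and LPS. The 3 lower with LPS were Nfe2l2 (means of 281 CPM without and 192 CPM with LPS), Ddi2 (120 and 85.6 CPM) and Ngly1 (33.5 and 22.4 CPM). Nfe2l1 rose with LPS by 1.29 ± 0.14 (adjusted p = 1.66e-08). In LPS-treated cells it was higher by 0.37 with 25HC, 0.45 with itraconazole and 0.49 with OSW-1, against controls at 743, 716.5 and 431 CPM in mice 1, 2 and 3. Without the control of mouse 3 the values were 0.16, 0.24 and 0.28, of which only that of OSW-1 was called (adjusted p = 0.0252). In a fit of the compared groups alone none of them was called (adjusted p = 0.192, 0.116 and 0.0506), and the 25HC call was also lost without the 25HC library of mouse 1 (0.38) or 2 (0.34). Ngly1, which activates NRF1 by removing its sugars, was higher by 1.11 with OSW-1 and LPS. Ddi2 was at a mean of 86.7 CPM there, against 85.6 CPM in the LPS controls.

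Of 15 ubiquitin and delivery genes, 10 were higher (66.7%) and 1 lower (6.67%) with LPS. Against LPS controls, 13 (86.7%), 12 (80%) and 13 (86.7%) were higher and 0 lower with 25HC, itraconazole and OSW-1, but 6 higher with 25HC in a fit of the compared groups alone. With OSW-1 these held the autophagy receptor Sqstm1 (2.54 ± 0.31) and the ubiquitin activating enzyme Uba6 (1.76 ± 0.14). Without the untreated LPS library of mouse 3, 2 were lower with LPS and 1 with OSW-1 and LPS, and without that of mouse 1, 2 were lower with LPS. In unstimulated cells, 8 (53.3%), 7 (46.7%) and 11 (73.3%) of the 15 were higher and 0 lower with 25HC, itraconazole and OSW-1. The shares higher over all tested genes were 15.9%, 14.4% and 20.1%. A fit of the compared groups alone gave 9 higher and 1 lower with 25HC in unstimulated cells.

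Of 6 core assembly chaperones, 5 were in the table; with LPS 1 was higher (20%) and 1 lower (20%), or 2 lower without the LPS library of mouse 3. With OSW-1 and LPS 3 were higher (60%) and 1 lower (20%). Psmg1 (1.09 ± 0.15) and Psmg2 (1.04 ± 0.12), which pair to build the alpha ring, were higher with OSW-1 and LPS. Pomp, which matures the beta ring, rose with LPS (0.74) and was lower with 25HC (-0.59), itraconazole (-0.58) and OSW-1 (-0.66) in LPS-treated cells. Of 10 other subunits and bound partners, 4 were higher (40%) and 2 lower (20%) with LPS; 0 were lower without the LPS library of mouse 3 or the unstimulated untreated library of mouse 2, and in a fit of the compared groups alone. With OSW-1 and LPS 8 were higher (80%) and 1 lower (10%); those higher included the proteasome-bound ubiquitin ligase Ube3c (1.27 ± 0.07) and Txnl1 (1.18 ± 0.11).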

How the data were processed

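Whole-number counts per gene were deposited by the authors as 1 table of the 30 libraries; the submitters' processing notes name FastQC 0.11.9, GSNAP, featureCounts, Subread 1.5.2, edgeR 3.26.8 and the builds GRCm38 and mm10, and the labels name a stranded kit. The reason that 20 libraries hold only even counts is not given in the sources used here. From the counts, genes were filtered at a minimum count of 10 (edgeR 4.0.16, filterByExpr), libraries were scaled by TMM, and 1 quasi-likelihood fit of 10 group means over all 30 libraries gave log2 fold changes with standard errors, tested by contrasts with Benjamini-Hochberg adjustment over 13173 genes; the threshold was an adjusted p of 0.05. The code was tested on simulated data, with changes set in genes drawn at random above a count minimum. Of 1.25-fold changes, 14% were recovered for LPS in wild-type cells and 16% for 25HC without LPS. The shares were 20% for OSW-1 with LPS and 0% for the OSW-1 response difference. Of 1.5-fold changes, 64%, 50%, 72% and 26% were recovered, and of 2-fold changes 94%, 97%, 93% and 79%. A member not called may thus still have changed by a small amount. CPM use TMM-scaled totals (factors 0.796 to 1.14); RPKM divide by GENCODE exon length. Precision is limited by 3 libraries a group.

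Alternatives were DESeq2 1.42.0, its size factors in edgeR, no filter, the mouse as a block, the compared groups alone, even libraries halved, and each library left out; summing Psme2 with Psme2b, and the size factors, block, compared groups and left-out libraries for the related gene lists, were added after seeing the data. The size factors moved the median of all genes by at most 0.029 on the log2 scale. The labels give the same mice across the groups of a genotype, so the numbers pair libraries. Residuals of the same mouse had a median correlation of 0.136 over 84 wild-type pairs (-0.126 to 0.622, 50 over 0.1) and 0.162 over 3 Ch25h-/- pairs. Pairs with the same number but different genotype, which are different mice, had a median of 0.0557 over 48 pairs (-0.526 to 0.483, 18 over 0.1). No 2 libraries of a group were identical. The members and gene lists were chosen with earlier results of these data known. Every member could be named; full values were given for those with the largest changes called in each comparison, the catalytic genes, Psme1 and Psme2, plus Psma4, Psmd1, Psmd6, Psmd8, Psmd12 and Psmb4, named after their values were seen.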

Additional observations from a re-analysis of the deposited data

Results flagged for a closer look

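The LPS response of 25 gene and compound pairs differed between compound-treated and untreated wild-type cells, by the test of the difference itself (edgeR quasi-likelihood test of the interaction, adjusted p under 0.05). Values are differences of log2 fold changes, compound minus untreated. With 25HC they were Psma2 (-0.42), Psma7 (-0.40), Psmb2 (-0.36), Psmc5 (-0.40), Psmd1 (-0.38), Psmd2 (-0.34) and Psmd12 (-0.43). With itraconazole they were Psma1 (-0.34), Psma2 (-0.37), Psma4 (-0.25), Psma6 (-0.48), Psmb1 (-0.40), Psmb4 (0.26) and Psmd1 (-0.35). With OSW-1 they were Psma1 (-0.40), Psmb1 (-0.49), Psmb4 (0.58), Psmc2 (0.36), Psmc4 (0.58), Psmd1 (-0.31), Psmd6 (0.50), Psmd7 (0.29), Psmd13 (0.28), Psme1 (-0.76) and Psme2 (0.75). The 3 sets share the untreated libraries. Members lower and higher were 17.9% and 0% with 25HC, 15.4% and 2.56% with itraconazole and 10.3% and 17.9% with OSW-1. The shares over all tested genes were 6.95% and 5.34%, 14.2% and 12.2%, and 28.3% and 23.4%. In a fit of the compared groups alone, 0 members were called with 25HC or itraconazole.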

How the results depend on the processing

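No called log2 fold change of a member changed sign in any setting, while 93 of the 546 values, none of them called, did in at least 1 (Psmd8 with LPS in wild-type cells was -0.01, and 0.23 without the LPS library of mouse 3); of the 172 calls of members over all comparisons, 116 were kept in every setting and 121 with each library left out in turn. The counts of members called stayed within 1.5 times with DESeq2, its size factors, halved even libraries, no filter, the compared groups alone and the mouse as a block, except as follows; the cause was not tested. Without the filter, the 25HC response difference had 3 lower, that of itraconazole 3 lower and 0 higher, and 25HC with LPS 3 lower. With the compared groups alone, the response differences had 0 lower for 25HC and 0 lower and 0 higher for itraconazole; 25HC with LPS had 1 higher and 1 lower, itraconazole with LPS 3 higher and 2 lower, and LPS in Ch25h-/- 1 lower. With the mouse as a block (replicate block), LPS in Ch25h-/- had 1 lower and the OSW-1 response difference 8 lower; the block changed no other count by over 1.5 times and was not possible between genotypes, whose mice differ. DESeq2 had 1 lower between genotypes without LPS.

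With 1 library left out in turn, members higher ranged from 35 to 36 for LPS in wild-type cells (0 lower) and from 34 to 36 in Ch25h-/- cells (0 to 1 lower). Without LPS they ranged from 9 to 17 for 25HC, 3 to 7 for itraconazole and 4 to 8 for OSW-1, with 0 to 1, 0 to 1 and 2 lower. With LPS they ranged from 1 to 4, 5 to 10 and 12 to 21, with 2 to 9, 4 to 10 and 6 to 10 lower. For the response differences, 0 to 15 were lower with 25HC (0 higher), 0 to 11 with itraconazole (0 to 3 higher), 3 to 9 with OSW-1 (5 to 10 higher) and 0 to 2 in Ch25h-/- cells. Between genotypes, 0 to 2 were lower without and 0 to 14 with LPS. The highest counts lower with LPS and in the response differences came without the untreated LPS library of mouse 3. Shares over all tested genes were taken only for the main fit, at an adjusted p under 0.05.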
